A study of Arabidopsis thaliana with 27 samples.

Results

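The 291 loci described here are Arabidopsis nuclear tRNA loci whose names carry Ensembl non-coding RNA identifiers (ENSRNA) in a small RNA count table of 2071 loci. They were chosen by name and amino acid, with 3 loci taken out by identifier, and with earlier results of these data known. Of 344 ENSRNA tRNA loci, the 50 for the amino acids with charged side chains (arginine, lysine, histidine, aspartate and glutamate) were left out, as were 3 tRNA-Ala loci that form a group of their own, and the remaining 291 serve 14 amino acids whose side chains carry no charge. "Uncharged" refers here to the side chain and not to whether a tRNA carries its amino acid. The same table holds another 288 nuclear tRNA loci under AT gene identifiers, and 690 tRNA loci in all.

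Small RNAs were sequenced from etiolated hypocotyls of 3 genotypes, wild type Columbia-0 (WT), xpf-3 and uvr8-6, each kept dark or given 3000 or 30000 µmol m-2 of UV-B, with 3 libraries (I, II and III) in each of 9 groups. All seedlings had germinated for 2.5 days in darkness on filter paper with 0.5x MS medium and 100 µM GA4 (a gibberellin), were returned to darkness after exposure, and were harvested 6 h later according to the protocol, while the title of the study speaks of days. XPF is a subunit of an endonuclease of nucleotide excision repair, which removes UV damage from DNA, and UVR8 is the plant UV-B photoreceptor. The labels do not say that libraries of a group came from separate cultures, so p-values measure the spread between libraries, which may be technical, and small RNA counts give no check of the genotypes or of the tissue.

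Transfer RNAs deliver amino acids to the ribosome and read codons through a triplet called the anticodon. Plant genomes hold many copies of most tRNA genes, and copies are often identical in sequence. Small RNA libraries hold fragments cut from tRNAs as well as the short RNAs that silence genes, and a fragment from one of several identical copies carries no mark of the copy it came from.

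The tRNA genes of the RefSeq annotation (TAIR10.1) show how much sequence such copies share. RefSeq holds 625 nuclear tRNA genes, of which 288 have an AT row in the count table and 337 do not. The ENSRNA identifiers occur in no reference used here, so a locus could not be paired with a gene, but in 11 of the 14 amino acids the number of ENSRNA loci equalled the number of RefSeq genes without an AT row. Those 337 genes include 288 for the 14 amino acids, which have 87 distinct sequences, and 245 of the 288 share their sequence with at least 1 other of them. The sequences below are of such genes for the amino acids that the results turn on, 5′ to 3′, with the anticodon in capitals.

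The 14 tRNA-Phe genes without an AT row have 1 sequence, shown from chr1:515494-515566 on the plus strand (AT1G02480).
tRNA-Phe: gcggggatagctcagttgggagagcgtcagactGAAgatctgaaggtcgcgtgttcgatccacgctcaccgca

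The 5 tRNA-Cys genes have 5 sequences that differ from each other at 1 to 7 positions. They lie at chr5:16507533-16507604 (minus strand), chr5:7073943-7074014 (minus), chr5:18907523-18907594 (plus), chr3:19409368-19409439 (minus) and chr5:7073530-7073601 (minus), in the order shown.
tRNA-Cys AT5G41265: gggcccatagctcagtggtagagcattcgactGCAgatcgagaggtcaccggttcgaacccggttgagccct
tRNA-Cys AT5G20854: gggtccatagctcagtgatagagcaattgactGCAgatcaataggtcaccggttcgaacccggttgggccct
tRNA-Cys AT5G46595: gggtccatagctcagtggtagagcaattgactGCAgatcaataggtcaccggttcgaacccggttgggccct
tRNA-Cys AT3G52345: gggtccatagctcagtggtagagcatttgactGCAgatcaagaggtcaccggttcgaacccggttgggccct
tRNA-Cys AT5G20852: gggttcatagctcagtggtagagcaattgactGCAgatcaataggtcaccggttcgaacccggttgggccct

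The 6 tRNA-Pro genes without an AT row have 5 sequences with 3 anticodons, of which 3 are shown, 1 for each anticodon, from chr2:14353143-14353214, chr1:10090368-10090439 and chr2:9137356-9137427, all on the plus strand. The second of them, with anticodon TGG, is the sequence of 34 nuclear genes in all, only 1 of which lacks an AT row.
tRNA-Pro AT2G33920: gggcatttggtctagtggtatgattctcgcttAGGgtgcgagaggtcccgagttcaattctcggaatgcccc
tRNA-Pro AT1G28740: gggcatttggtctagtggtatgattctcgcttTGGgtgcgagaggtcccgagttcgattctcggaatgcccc
tRNA-Pro AT2G21360: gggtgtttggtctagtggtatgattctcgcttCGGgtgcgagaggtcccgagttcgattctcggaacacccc

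For tRNA-Ile, tRNA-Trp, tRNA-Tyr and tRNA-Asn, the commonest sequence among the genes without an AT row is shown. It is the sequence of 9 of 18 tRNA-Ile genes (chr1:1978084-1978157, plus strand), 5 of 8 tRNA-Trp genes (chr1:22866758-22866829, minus), 32 of 62 tRNA-Tyr genes (chr1:21269552-21269636, plus, intron removed) and 5 of 12 tRNA-Asn genes (chr1:26049478-26049551, plus).
tRNA-Ile AT1G06480: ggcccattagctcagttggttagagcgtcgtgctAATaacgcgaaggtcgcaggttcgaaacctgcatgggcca
tRNA-Trp AT1G61880: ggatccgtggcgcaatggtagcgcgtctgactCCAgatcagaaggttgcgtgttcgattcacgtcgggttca
tRNA-Tyr AT1G56750: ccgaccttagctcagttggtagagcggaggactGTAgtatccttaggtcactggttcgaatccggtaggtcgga
tRNA-Asn AT1G69300: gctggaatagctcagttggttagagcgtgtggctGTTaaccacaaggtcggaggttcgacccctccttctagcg

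Over the 27 libraries the 291 loci took 313171 counts, which is 0.936% of all counts and 8.17% of tRNA counts. Library totals ran from 681228 to 1970871 with a median of 1173114, and counts on the 291 loci from 4784 to 20576 a library. Of the 291, 54 had no count in any library, 41 of them tRNA-Tyr and 13 tRNA-Ser, and 237 had counts. A filter on low counts left 176 of them among 1109 loci tested. Only 36 loci were counted in every library, and 140 of the 176 tested had at least 1 library at 0.

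The loci did not share the counts evenly. tRNA-Ala loci, 19 in number, held 30.2% of the counts on the 291, followed by the 39 tRNA-Ser loci with 13.3%, the 30 tRNA-Gly loci with 11.9% and the 27 tRNA-Val loci with 11.3%. The 62 tRNA-Tyr loci held 0.665% and the 9 tRNA-Trp loci 0.463%. In several amino acids a single locus took a large share: ENSRNA049492583 held 72.9% of the counts on the 6 tRNA-Pro loci, ENSRNA049492655 72.7% on the 13 tRNA-Thr loci, ENSRNA049492660 56.1% on the 18 tRNA-Ile loci and ENSRNA049492634 47.3% on the 6 tRNA-Gln loci. No length is given for the loci, so such shares order read counts and not RNA levels per length.

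The 10 most counted loci took 41.5% of the counts on the 291. By mean CPM (counts relative to library size, with sizes scaled by the trimmed mean of M values, TMM) over the 27 libraries they were tRNA-Ala ENSRNA049492441 at 701, tRNA-Ser ENSRNA049492704 at 486, tRNA-Thr ENSRNA049492655 at 478, tRNA-Val ENSRNA049492712 at 367, tRNA-Ile ENSRNA049492660 at 360, tRNA-Ala ENSRNA049492367 at 351, tRNA-Ala ENSRNA049492701 at 317, tRNA-Ala ENSRNA049492689 at 314, tRNA-Gly ENSRNA049492608 at 273 and tRNA-Ser ENSRNA049492466 at 237. The most counted, tRNA-Ala ENSRNA049492441, ranged over the libraries from 0 to 3437 counts. tRNA-Thr ENSRNA049492655 stayed between 241 and 1007 counts. Some abundant loci were counted in every library at similar levels, and others were abundant in one library and at 0 in the next.

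How fully the 291 represent their amino acid also varied. Of the counts on all nuclear loci of an amino acid, the 291 held 97.7% for tRNA-Val, 78.1% for tRNA-Thr and 73.7% for tRNA-Ser. They held 43.6% for tRNA-Cys, 27.3% for tRNA-Gln, 25.2% for tRNA-Pro and 4.03% for tRNA-Ala. The remainder lay on loci with AT identifiers and, for tRNA-Ala, on the 3 loci set apart.

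Replicate libraries often disagreed about which copy carried the counts. A jump is used here for a group in which 1 library had at most 3 counts on a locus and another at least 30. Of the 71 loci with a mean of at least 30 counts, 46 (64.8%) had a jump in at least 1 of the 9 groups. The share was 67.6% (25 of 37) in the ENSRNA loci for charged amino acids and 46.9% (46 of 98) in nuclear tRNA loci with AT identifiers, against 19.7% of rRNA loci (13 of 66), 7.41% of miRNA loci (4 of 54) and 4.03% of snoRNA loci (10 of 248). None of 24 chloroplast tRNA loci had one.

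For tRNA-Phe, whose 14 genes without an AT row have 1 sequence, all 5 loci of that mean count had a jump. ENSRNA049492451 had 14, 0 and 0 counts in the 3 WT dark libraries and 110, 231 and 90 at the lower dose. ENSRNA049492426 had 30, 341 and 44 counts in xpf-3 dark and 34, 9 and 0 in uvr8-6 dark. The sum of the 14 tRNA-Phe loci ran from 130 to 796 counts over the 27 libraries. A sum adds up its loci, so it seldom comes down to the 3 counts that a jump needs.

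tRNA-Asn and tRNA-Gly gave the same picture. ENSRNA049492485, the most counted tRNA-Asn locus, had 3, 125 and 2 counts in WT dark, 0, 0 and 278 in xpf-3 at the lower dose and 4, 526 and 0 in uvr8-6 at the lower dose. ENSRNA049492608, the most counted tRNA-Gly locus, had 413, 701 and 4 counts in WT dark and 0, 407 and 358 in xpf-3 at the lower dose. In each of these groups 1 library stood alone, high or low.

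tRNA-Cys, with 5 distinct sequences, differed from this. None of its 3 loci with a mean of at least 30 counts had a jump, and neither did the 2 of tRNA-Pro or the 1 of tRNA-Gln, against 5 of 5 for tRNA-Phe, 12 of 13 for tRNA-Ala, 8 of 10 for tRNA-Gly and 7 of 9 for tRNA-Val. Sequence sharing was counted here only among genes without an AT row. Across the 12 amino acids with loci of that mean count, it was compared with the percent of loci with a jump. Pearson's r was 0.70 and Spearman's rho 0.72. Of the distinct sequences, 4 of 5 for tRNA-Pro, 2 of 3 for tRNA-Gln and 1 of 5 for tRNA-Cys also occur in genes with an AT row. Those 3 amino acids had no jump, but the same was seen where loci jumped. It held for 1 of 1 sequence for tRNA-Phe, 2 of 4 for tRNA-Ala, 3 of 7 for tRNA-Gly and 1 of 7 for tRNA-Val. The percent thus leaves out sharing with genes that have an AT row, in amino acids with and without jumps. tRNA-Leu lay apart, with 1 of 6 loci with a jump although nearly all its genes share a sequence. The correlations are a description over amino acids counted in the same libraries. No source used here says how the authors assigned reads that match several copies. The part of such reads in the jumps was not tested.

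**Figure D1:**
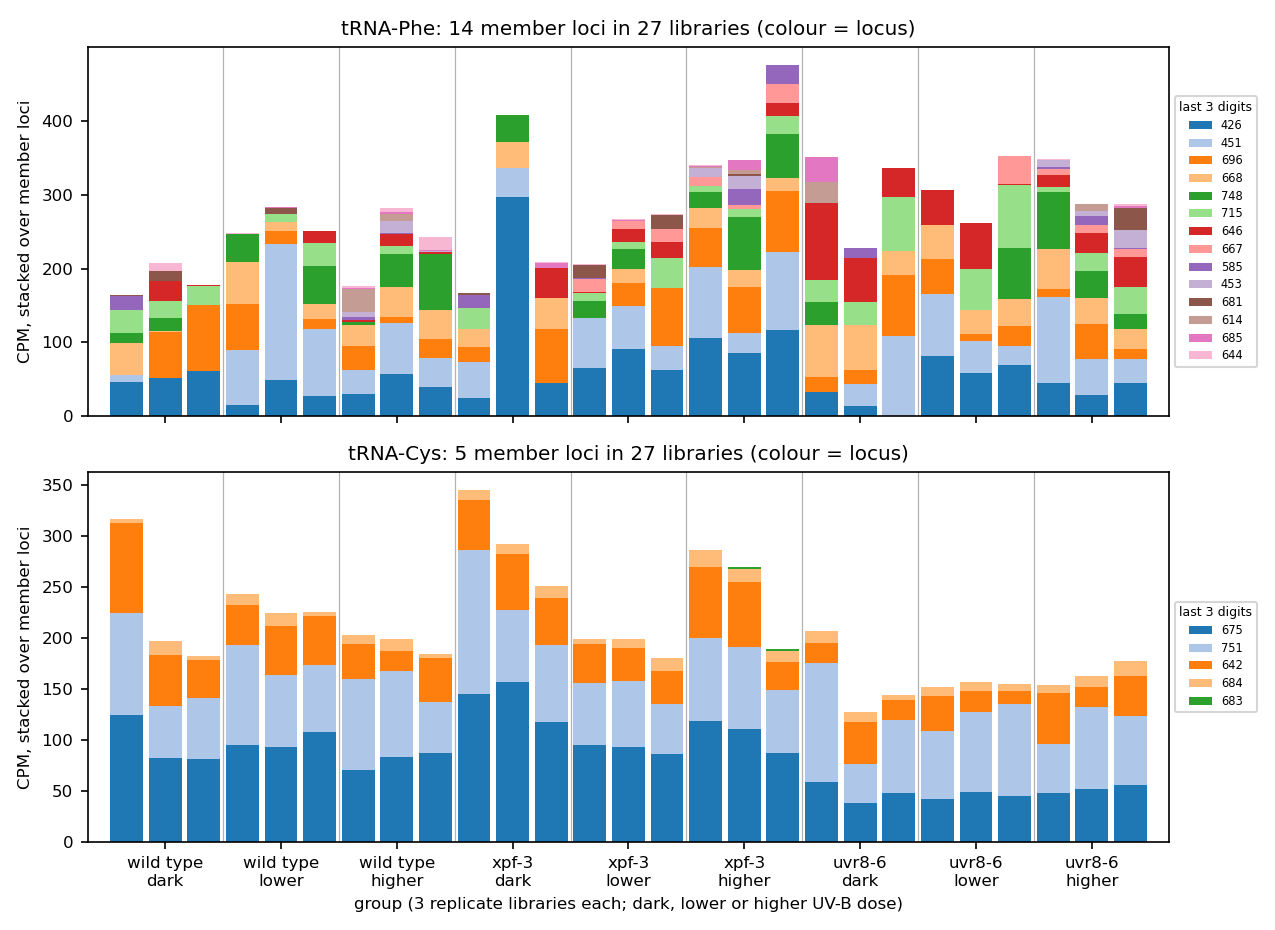
CPM of the 14 tRNA-Phe loci (upper panel) and the 5 tRNA-Cys loci (lower panel) in each of the 27 libraries, stacked by locus, with the libraries by group on the horizontal axis, CPM on the vertical axis and colours for the loci by the last digits of their identifiers. The tRNA-Phe loci that carry the counts change from library to library, while the 3 main tRNA-Cys loci are present in every one.

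**Figure D2:**
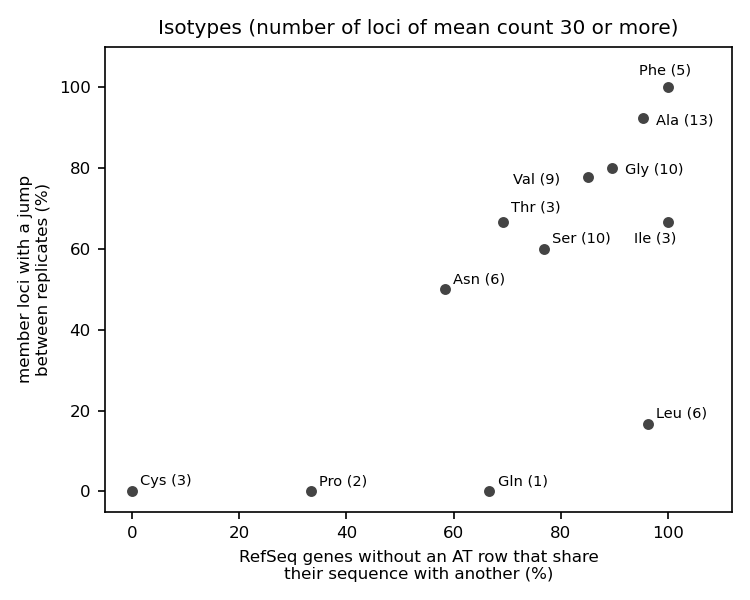
Each point is 1 of the 12 amino acids with loci of at least 30 mean counts. The horizontal axis is the percent of RefSeq genes without an AT row that share their sequence with another, and the vertical axis the percent of those loci with a jump, 0 for tRNA-Cys, tRNA-Pro and tRNA-Gln and 100 for tRNA-Phe.

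Because of the jumps, the comparisons are given both for single loci and for sums over the loci of each amino acid. The median coefficient of variation within a group was 49.7% for the 71 single loci with a mean of at least 30 counts. It was 19.0% for the 14 sums, which include the sparse tRNA-Trp and tRNA-Tyr. None of the 14 sums jumped in any group. The lowest count of a sum in any library was 11, for tRNA-Trp, above the 3 counts that a jump needs. A sum adds up its loci, so its lack of jumps was nearly fixed in advance and is not read as a result. Sums were put in place of their loci in the table and scaled anew, so CPM of a sum and of a single locus are on slightly different scales. In all comparisons a call is an adjusted p under 0.05 by edgeR's quasi-likelihood test. Benjamini-Hochberg adjustment was over all 1109 loci, or over the 947 rows of the table with sums. Sums over all nuclear loci and fits under other settings were adjusted over the rows of their own tables. Counts of calls by DESeq2, another test, are given beside some of the edgeR counts. The share of all loci that DESeq2 called was not counted. Where a whole group of a locus is at 0, the size of a fitted change depends on the fit's prior count, so it is given for direction and as no bound.

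The largest differences lay between uvr8-6 and WT. Averaged over the 3 doses, 26 of the 176 tested loci were called, 11 higher and 15 lower in uvr8-6, which is 14.8% of them against 30.5% of all loci tested (14.3% higher and 16.1% lower). The called proline and cysteine loci were lower, and the called isoleucine, tryptophan and asparagine loci higher. The groups of 9 libraries did not overlap for 2 of the 176 (1.14%, against 5.68% of all loci), and these 2 were the main tRNA-Pro and tRNA-Cys loci. The median log2 change of the 176 was 0.18, against -0.02 over all loci.

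tRNA-Pro ENSRNA049492583 had 212, 220 and 159 CPM in WT dark, 179, 235 and 353 at the lower dose and 238, 153 and 241 at the higher dose. In uvr8-6 it had 91.6, 63.0 and 70.7 CPM in the dark, 72.9, 83.5 and 68.1 at the lower dose and 78.8, 72.1 and 83.7 at the higher dose. Every uvr8-6 library lay below every WT library and below all 9 xpf-3 libraries, which ran from 177 to 352 CPM. The group means were 197 ± 33.0, 256 ± 88.7 and 211 ± 50.4 CPM in WT and 75.1 ± 14.8, 74.8 ± 7.89 and 78.2 ± 5.85 CPM in uvr8-6 (SD, n = 3 each). The log2 change in the mean of doses was -1.53 ± 0.14 (SE, edgeR adjusted p = 3.77e-07).

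A second tRNA-Pro locus, ENSRNA049492471, also fell, by 1.06 on the log2 scale (SE 0.32, edgeR adjusted p = 0.0140). It had 29.6, 42.0 and 33.9 CPM in uvr8-6 dark against 84.2, 40.7 and 64.4 CPM in WT dark, so these groups overlapped. The third tested, ENSRNA049492377, had a log2 change of -2.24 that did not pass (SE 1.10, edgeR adjusted p = 0.140).

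tRNA-Cys ENSRNA049492675 had 125, 82.3 and 80.9 CPM in WT dark and 58.2, 37.5 and 47.4 CPM in uvr8-6 dark. Over all doses its lowest, median and highest values were 69.9, 87.2 and 125 CPM in WT, 85.6, 111 and 156 CPM in xpf-3 and 37.5, 47.4 and 58.2 CPM in uvr8-6. Again no uvr8-6 library reached the level of any library of the other two genotypes. The locus fell by 0.92 on the log2 scale in uvr8-6 (SE 0.11, edgeR adjusted p = 6.42e-06). The other three tested tRNA-Cys loci did not pass, with log2 changes of -0.66 ± 0.25 for ENSRNA049492642 (SE, edgeR adjusted p = 0.0541), -0.02 ± 0.21 for ENSRNA049492751 and 0.16 ± 0.31 for ENSRNA049492684.

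tRNA-Ile ENSRNA049492660 moved the other way. Its lowest, median and highest values were 172, 277 and 338 CPM in WT and 323, 397 and 555 CPM in uvr8-6, so the ranges overlapped slightly. xpf-3 lay between at 306, 366 and 479 CPM. The log2 change in uvr8-6 was 0.71 ± 0.14 (SE, edgeR adjusted p = 0.000610).

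Among loci without jumps, tRNA-Leu ENSRNA049492469 rose in uvr8-6 by 1.35 ± 0.28 on the log2 scale (SE, edgeR adjusted p = 0.00120), from 7.87 to 26.3 CPM in the WT libraries to 17.1 to 78.4 CPM in those of uvr8-6. tRNA-Gln ENSRNA049492634 rose by 0.86 ± 0.22 (SE, edgeR adjusted p = 0.00555), from a WT median of 32.7 CPM to 52.7 CPM. Both ranges overlapped between the genotypes. tRNA-Trp ENSRNA049492578 rose by 0.86 on the log2 scale (edgeR adjusted p = 0.0120), and tRNA-Asn ENSRNA049492606 and ENSRNA049492448 by 1.29 and 0.54 (0.0115 and 0.0174). tRNA-Leu ENSRNA049492450 and ENSRNA049492399 fell by 1.10 and 0.84 (edgeR adjusted p = 0.0129 and 0.0347), the second lost in 12 of 23 other settings. tRNA-Trp ENSRNA049492588 was called at 1.34 (edgeR adjusted p = 0.00917), but it met the filter on low counts only through its uvr8-6 libraries, so that test is no support for the difference.

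**Figure D3:**
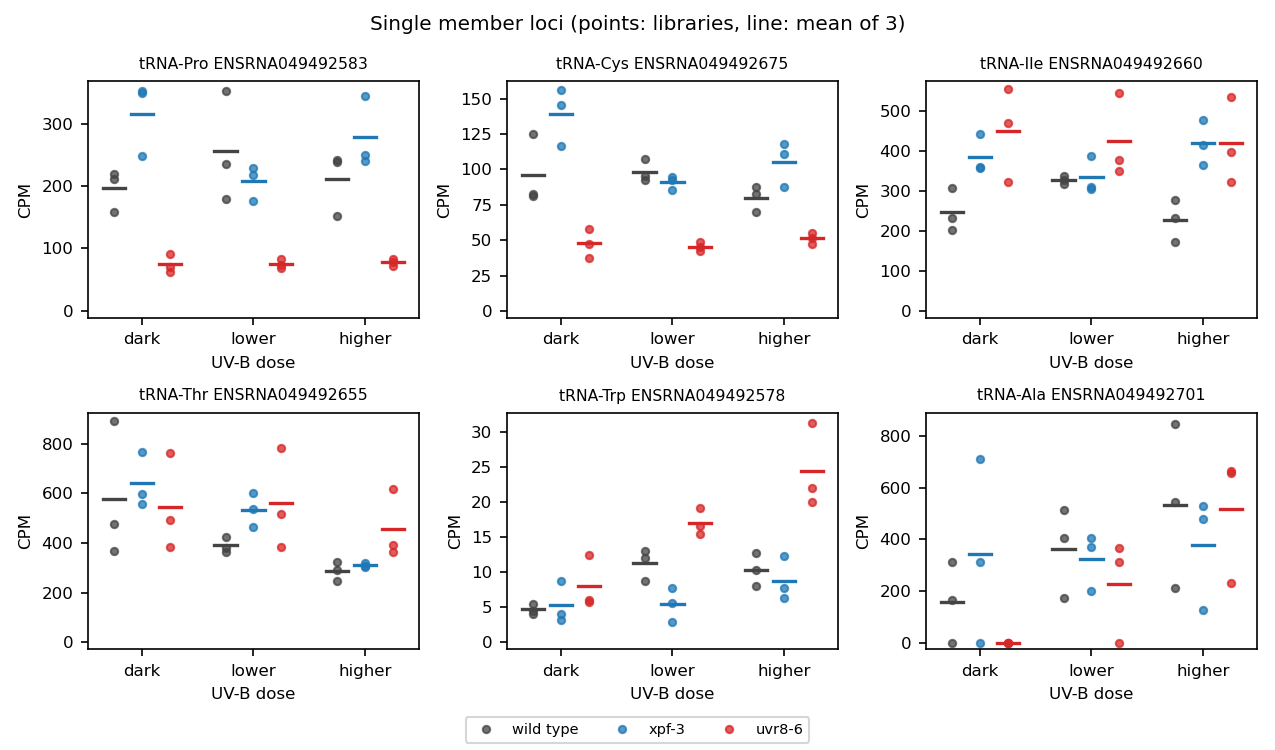
CPM per library of 6 loci, 1 panel a locus, by UV-B dose on the horizontal axis (dark, 3000 and 30000 µmol m-2) and coloured by genotype. The uvr8-6 points of tRNA-Pro ENSRNA049492583 and tRNA-Cys ENSRNA049492675 lie below all other points at every dose, and those of tRNA-Ala ENSRNA049492701 are at 0 in the dark.

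Of the 26 calls, 16 were on the 72 tested loci with no jump and 10 on the 104 with one. The absolute log2 changes of the called loci ran from 0.35 to 4.63 without a jump and from 1.81 to 5.44 with one. A locus below 30 counts in every library cannot jump, and one that varies between libraries is called only at a large change. The contrast of these ranges is therefore no support for a difference. A case with a jump is tRNA-Val ENSRNA049492665, which had 0, 1 and 94 counts in uvr8-6 dark, 0 in all 3 uvr8-6 libraries at the lower dose and 86, 221 and 179 at the higher dose, against 106, 0 and 67 in WT dark. Its log2 change was -3.59 (edgeR adjusted p = 0.00917), and -5.37 without uvr8-6 dark III.

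Loci that fell included several with few or no counts in uvr8-6. tRNA-Gly ENSRNA049492700 had 58, 21 and 35 counts in WT dark, 65, 97 and 26 at the lower dose and 29, 21 and 45 at the higher dose, against 10, 0 and 10, then 0, 14 and 28, then 9, 6 and 21 in uvr8-6. It was lower in uvr8-6 at each dose in total counts, and fell by 2.07 on the log2 scale (SE 0.58, edgeR adjusted p = 0.00917). tRNA-Leu ENSRNA049492742 had 0, 10 and 14 counts in uvr8-6 dark and 3 counts in the 6 irradiated uvr8-6 libraries, against 30, 18 and 18 in WT dark (log2 change -3.55, edgeR adjusted p = 0.00676, and -4.18 or -4.50 without uvr8-6 lower dose III or higher dose II). tRNA-Val ENSRNA049492664 and tRNA-Leu ENSRNA049492603, both at 0 in uvr8-6 dark, fell by 2.65 and 3.45 (edgeR adjusted p = 0.00324 and 0.00381).

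The most counted locus of the 291, tRNA-Ala ENSRNA049492441, fell by 2.55 (SE 0.62, edgeR adjusted p = 0.00334), and by 3.19 without uvr8-6 dark I. The sum of the 19 tRNA-Ala loci did not follow it, with a log2 change of -0.14 that did not pass (SE 0.27, edgeR adjusted p = 0.783). A further 5 calls lay close to the threshold and each was lost in 13 to 18 of 23 other settings. They were tRNA-Ala ENSRNA049492701 (-3.79, edgeR adjusted p = 0.0386), tRNA-Leu ENSRNA049492636 (-0.89, 0.0390), tRNA-Ser ENSRNA049492698 (-4.15, 0.0478, and -5.23 without uvr8-6 lower dose I), tRNA-Ile ENSRNA049492458 (1.81, 0.0484, and 3.37 without WT dark II) and tRNA-Val ENSRNA049492712 (0.35, 0.0496).

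Several of these calls rested on few libraries. That of tRNA-Ala ENSRNA049492414 (log2 change 5.44, edgeR adjusted p = 0.0475) ended without uvr8-6 lower dose I, with an adjusted p of 0.620, a library that held 1875 counts where the other two held 1 and 0. Its change was 2.03 without that library and 7.53 without WT dark II. tRNA-Val ENSRNA049492726 had 1 count in the 9 WT libraries and 37 in 3 uvr8-6 libraries, 14, 12 and 11, and its change of 4.63 became 2.79 without uvr8-6 dark III, 2.86 without uvr8-6 lower dose I, 3.02 without uvr8-6 higher dose III and 5.24 without WT dark I. Its call (edgeR adjusted p = 0.0394) was lost in 14 of 23 other settings, among them each of these 4, with an adjusted p of 0.0550 without WT dark I and of 0.9999 without any 1 of the 3 uvr8-6 libraries. tRNA-Ser ENSRNA049492427 fell by 5.17 (4 counts in 1 of the 9 uvr8-6 libraries) by 3.90 without WT dark III, which ended its call, and by 6.59 without uvr8-6 dark II.

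The sums over amino acids gave 7 calls of 14 between uvr8-6 and WT, 5 higher and 2 lower, against 35.1% of the 947 rows of that table (17.5% in each direction). tRNA-Pro and tRNA-Cys fell, and tRNA-Ile, tRNA-Asn, tRNA-Trp, tRNA-Gly and tRNA-Phe rose. The tRNA-Pro sum was 272, 275 and 219 CPM in WT dark and 129, 115 and 106 CPM in uvr8-6 dark. Over all doses it ran from 219 to 447 CPM in WT, from 221 to 468 CPM in xpf-3 and from 88.7 to 133 CPM in uvr8-6, with no overlap between uvr8-6 and the others. It fell by 1.42 on the log2 scale (SE 0.14, edgeR adjusted p = 3.86e-07), and was the 1 of 14 sums (7.14%, against 6.12% of all rows) whose uvr8-6 and WT libraries did not overlap.

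The other sums overlapped between uvr8-6 and WT. The tRNA-Ile sum ran from 250 to 684 CPM in WT and from 627 to 1159 CPM in uvr8-6, a log2 change of 0.86 ± 0.14 (SE, edgeR adjusted p = 0.000112). The tRNA-Asn sum had a median of 344 CPM in WT and 565 CPM in uvr8-6 (0.83 ± 0.17, edgeR adjusted p = 0.000966). The tRNA-Trp sum had medians of 32.7 and 61.2 CPM (0.87 ± 0.20, edgeR adjusted p = 0.00171).

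Smaller changes were called for 3 more sums. The tRNA-Cys sum fell by 0.43 ± 0.11 on the log2 scale (SE, edgeR adjusted p = 0.00517), from a median of 204 CPM in WT to 157 CPM, less than its main locus. The tRNA-Gly sum rose by 0.42 ± 0.12 (edgeR adjusted p = 0.00880) and the tRNA-Phe sum by 0.48 ± 0.16 (edgeR adjusted p = 0.0213), although no single tRNA-Phe locus passed. The tRNA-Phe call was lost without any 1 of 4 libraries, with an adjusted p of 0.0735 at most. The sums of tRNA-Val, tRNA-Gln and tRNA-Leu had log2 changes of 0.33, 0.49 and -0.35 that did not pass (edgeR adjusted p = 0.0635, 0.0773 and 0.111).

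Since the 291 loci hold a minority of the proline counts, all nuclear loci of each amino acid were also summed, a choice made after seeing the data. These sums took the place of their loci in a further table, with p adjusted over its own rows. The share of all its rows that was called was not counted. The 66 tRNA-Pro loci together ran between 412 and 631 CPM in uvr8-6 and between 845 and 1853 CPM in WT, and fell by 1.31 ± 0.12 on the log2 scale (SE, edgeR adjusted p = 1.50e-07). tRNA-Ile rose by 0.75, tRNA-Phe by 0.60, tRNA-Trp by 0.82 and tRNA-Asn by 0.57, and tRNA-Cys fell by 0.40, all called. tRNA-Gln, not called as a sum of ENSRNA loci, was called here at 0.37 (edgeR adjusted p = 0.0102). The tRNA-Gly change of 0.18 was not (edgeR adjusted p = 0.195).

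**Figure D4:**
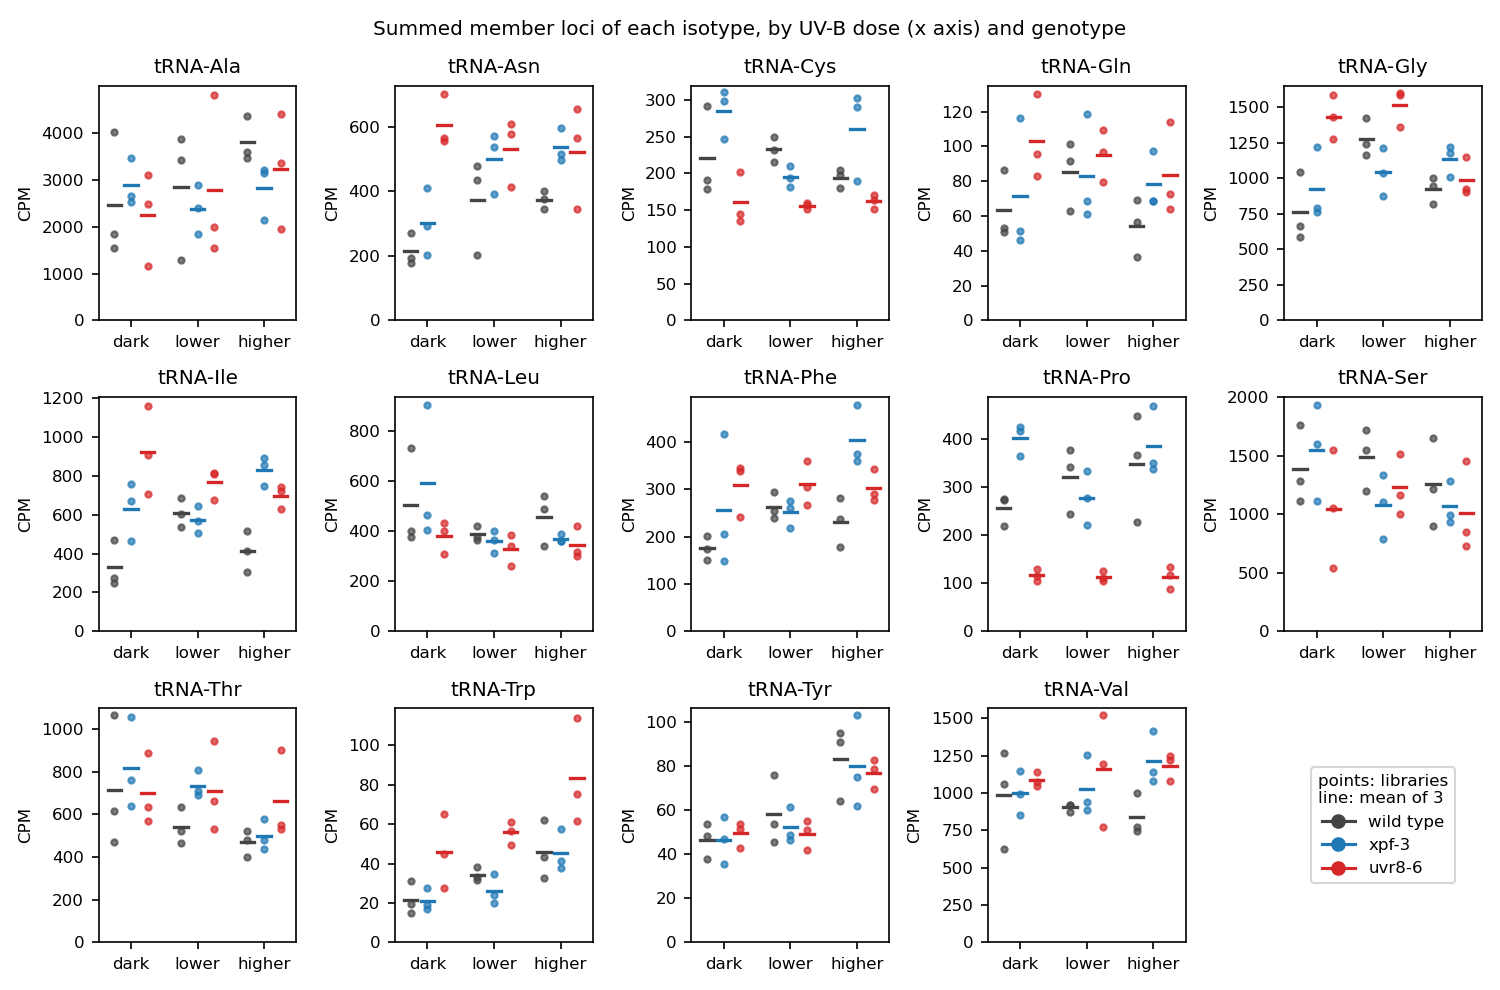
CPM per library (points) and mean of 3 libraries (lines) of the sums over the ENSRNA loci of each of the 14 amino acids, 1 panel each, by UV-B dose on the horizontal axis and by genotype in colour. The tRNA-Pro sum lies between 88.7 and 133 CPM in uvr8-6 and between 219 and 468 CPM in WT and xpf-3.

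tRNA counts were 9.52 ± 1.99, 8.75 ± 0.267 and 8.06 ± 2.25% of all counts in uvr8-6 in the dark, at the lower and at the higher dose, and 13.3 ± 3.85, 11.9 ± 1.81 and 12.2 ± 2.34% in WT (SD, n = 3 each). The 291 loci in turn held 8.87, 10.3 and 10.6% of those tRNA counts in uvr8-6 and 6.45, 8.86 and 8.87% in WT. Scaling to tRNA counts in place of all counts gave 25 calls of 176 and the same 7 sums called. How many of all loci were called under that scaling was not counted. The part of the tRNA shares in the differences was not tested. In bulk tissue, fewer cells of a type and less RNA per cell cannot be told apart.

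In the dark alone, 11 of the 176 loci differed between uvr8-6 and WT, 5 higher and 6 lower (6.25%, against 11.6% of all loci tested, 4.78% higher and 6.85% lower), and 8 of the 11 did not overlap between the groups (4.55%, against 11.2% of all loci). tRNA-Pro ENSRNA049492583 fell by 1.39 on the log2 scale (SE 0.25, edgeR adjusted p = 0.00394) and tRNA-Cys ENSRNA049492675 by 1.01 (SE 0.20, edgeR adjusted p = 0.00459). tRNA-Ile ENSRNA049492660 rose by 0.86 ± 0.24 (edgeR adjusted p = 0.0243).

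Of the 11, 4 were at 0 in all 3 libraries of a group, and for those a bound replaces a fold, taking 3 counts over that group as the floor. The bound compares counts pooled over each group and does not cover the spread between its libraries. tRNA-Val ENSRNA049492664 had 22, 17 and 8 counts in WT dark and 0 in uvr8-6 dark, at least 13.1-fold lower (edgeR adjusted p = 0.00539). tRNA-Leu ENSRNA049492603 had 37, 32 and 0 counts in WT and 0 in uvr8-6, at least 19.2-fold lower (edgeR adjusted p = 0.0172). tRNA-Ala ENSRNA049492701, with 240, 0 and 228 counts in WT, was at least 130-fold lower in pooled counts (edgeR adjusted p = 0.0327). WT dark II was itself at 0 on this locus, and the call ended without WT dark III (edgeR adjusted p = 0.0808). tRNA-Ser ENSRNA049492487, with 34, 26 and 45 counts in uvr8-6 and 0 in WT, was at least 42.0-fold higher (edgeR adjusted p = 0.0416).

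The rest of the 11 included loci with jumps. tRNA-Ala ENSRNA049492441 had 3437, 1169 and 276 counts in WT and 165, 0 and 30 in uvr8-6 (log2 change -4.33, edgeR adjusted p = 0.0195), and its change was -3.46 without WT dark I, -3.67 without uvr8-6 dark II and -6.28 without uvr8-6 dark I. Its call ended without WT dark I (edgeR adjusted p = 0.0733) or uvr8-6 dark II (edgeR adjusted p = 0.0580). tRNA-Ile ENSRNA049492458 had 1, 41 and 0 counts in WT and 476, 163 and 222 in uvr8-6 (edgeR adjusted p = 0.0301). tRNA-Gly ENSRNA049492625 had 4, 0 and 0 counts in WT and 222, 0 and 253 in uvr8-6 (edgeR adjusted p = 0.0327). tRNA-Asn ENSRNA049492448 rose by 0.94 ± 0.30 without a jump (edgeR adjusted p = 0.0416).

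Of these 11 calls, those of ENSRNA049492583 and ENSRNA049492664 held under all 11 other settings, and that of ENSRNA049492675 ended only without uvr8-6 dark II (edgeR adjusted p = 0.0524). The count of 11 became 5 without WT dark I, 6 without WT dark III, 7 without uvr8-6 dark I and 6 without uvr8-6 dark II or III.

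After the higher dose of UV-B, averaged over the 3 genotypes, 14 of the 176 loci were called against the dark, 10 higher and 4 lower (7.95%, against 16.9% of all loci tested, 7.94% higher and 8.93% lower). The called loci included 3 that met the filter on low counts only through the higher dose libraries (ENSRNA049492453, ENSRNA049492457 and ENSRNA049492416). Tryptophan and asparagine loci were among those that rose and the main threonine locus among those that fell. The median log2 change was 0.31 over the 176 and 0.11 over all loci, with 109 of the 176 above 0. Of the 14 calls, 9 were on the 72 tested loci with no jump and 5 on the 104 with one.

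tRNA-Thr ENSRNA049492655, the most counted tRNA-Thr locus, had 366, 556 and 891 CPM (lowest, median and highest of 9 libraries) in the dark and 248, 320 and 616 CPM at the higher dose. It fell by 0.77 on the log2 scale (SE 0.18, edgeR adjusted p = 0.00537). The ranges overlapped. tRNA-Leu ENSRNA049492399 and ENSRNA049492389 fell by 1.07 and 0.78 (edgeR adjusted p = 0.0195 and 0.0164), calls that ended without xpf-3 dark II (0.0577) and uvr8-6 dark I (0.0559). tRNA-Ser ENSRNA049492577 fell by 2.86 (edgeR adjusted p = 0.0390), a call lost in 13 of 23 other settings, and by 2.16 without WT dark III.

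tRNA-Trp ENSRNA049492578 rose from 3.25, 5.48 and 12.4 CPM in the dark to 6.33, 12.2 and 31.3 CPM, a log2 change of 1.14 ± 0.25 (SE, edgeR adjusted p = 0.00439). A second tRNA-Trp locus, ENSRNA049492435, rose by 1.16 ± 0.34 (edgeR adjusted p = 0.0260), and its call ended without WT higher dose II (0.0582). tRNA-Asn ENSRNA049492473 rose by 1.11 ± 0.25 (edgeR adjusted p = 0.00429), from 15.1, 30.2 and 45.4 CPM to 34.9, 69.1 and 107 CPM. tRNA-Gly ENSRNA049492382 rose by 1.04 ± 0.29 (edgeR adjusted p = 0.0206), from a mean of 14.2 CPM to 29.4 CPM.

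Other loci rose from 0 or near it. tRNA-Phe ENSRNA049492453 had no count in any of the 9 dark or 9 lower dose libraries. At the higher dose it had 6, 28 and 1 counts in WT, 27, 35 and 0 in xpf-3 and 14, 6 and 31 in uvr8-6, at least 36.0-fold higher with a floor of 3 counts over the dark libraries. It met the filter on low counts only through those libraries and so had to differ, and the call is no support for a change. The locus thus appeared in 8 of 9 libraries of the higher dose, while the tRNA-Phe sum changed by 0.34, which did not pass (edgeR adjusted p = 0.132). Over all 17 nuclear tRNA-Phe loci the change was 0.35 and passed (edgeR adjusted p = 0.0201).

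tRNA-Ala ENSRNA049492701 was at 0 in all 3 uvr8-6 dark libraries and had 862, 957 and 157 counts in WT, 1091, 900 and 209 in xpf-3 and 1110, 539 and 303 in uvr8-6 at the higher dose. Library II was also at 0 in WT dark and in xpf-3 dark, where the other libraries had 228 to 879 counts. Its log2 change was 4.75 ± 1.34 (edgeR adjusted p = 0.0231). tRNA-Val ENSRNA049492664 rose by 3.16 ± 0.63 (edgeR adjusted p = 0.00231), and 78, 61 and 46 counts in xpf-3 at the higher dose were its highest group.

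The remaining calls were tRNA-Leu ENSRNA049492603 (2.88, edgeR adjusted p = 0.0257, and 0.0509 without uvr8-6 dark I), tRNA-Ile ENSRNA049492457 (3.18, 0.0235) and tRNA-Tyr ENSRNA049492416 (2.62, 0.0416). The tRNA-Tyr call was lost in 11 of 23 other settings, and the change was 3.72 without xpf-3 dark I and 3.40 without uvr8-6 dark I. That of tRNA-Ile ENSRNA049492457 was 4.23 without WT dark III and 3.80 without uvr8-6 dark II, and its call held under all 23. Both loci met the filter only through their higher dose libraries, so these calls too are no support for a change.

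**Figure D5:**
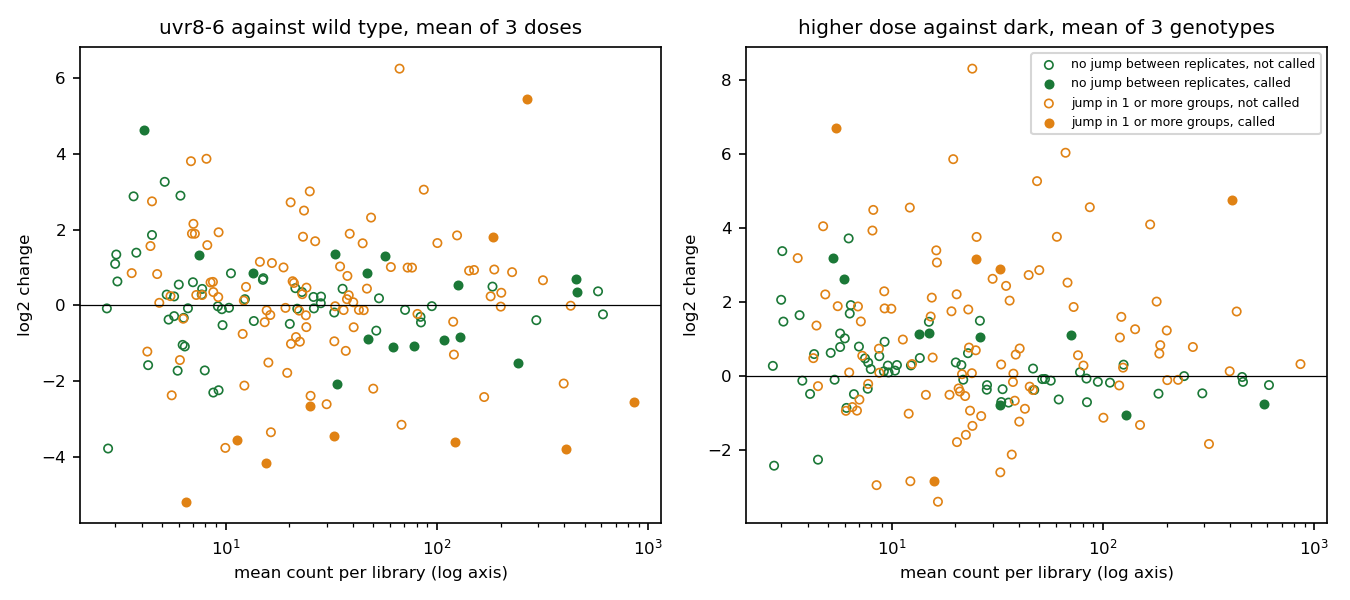
Log2 change of the 176 tested loci against their mean count (log axis) for uvr8-6 against WT (left) and for the higher dose against dark (right), with called loci filled and colour marking loci with a jump. The changes beyond 4 on either side belong mostly to loci with a jump or with few counts.

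Among the sums, 2 of 14 were called at the higher dose, both higher (against 21.1% of the 947 rows in either direction and 11.6% higher). The tRNA-Tyr sum had 35.8, 48.4 and 57.1 CPM (lowest, median and highest) in the dark and 61.9, 78.9 and 103 CPM at the higher dose. Its log2 change was 0.75 ± 0.14 (SE, edgeR adjusted p = 0.000856). The tRNA-Trp sum had 14.8, 27.4 and 65.3 CPM in the dark and 32.7, 57.6 and 114 CPM at the higher dose, and rose by 1.01 ± 0.20 (edgeR adjusted p = 0.00133).

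Both sums rest on few counts. The tRNA-Trp sum had 49, 22 and 11 counts in WT dark and 33, 109 and 33 at the higher dose, 26, 31 and 17 against 80, 100 and 63 in xpf-3, and 48, 41 and 28 against 192, 61 and 83 in uvr8-6. The tRNA-Tyr sum had 85, 55 and 28 counts in WT dark and 92, 167 and 49 at the higher dose. With all nuclear loci summed, tRNA-Trp rose by 1.11 (edgeR adjusted p = 2.99e-05) and tRNA-Tyr changed by 0.33, which did not pass (edgeR adjusted p = 0.0793). The tRNA-Thr and tRNA-Asn sums had log2 changes of -0.47 and 0.47 that did not pass (edgeR adjusted p = 0.0510 and 0.0587). Over all nuclear loci tRNA-Thr passed at -0.41 (edgeR adjusted p = 0.0311) and tRNA-Asn did not at 0.30 (0.169).

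Within single genotypes hardly any locus passed at the higher dose. In WT none of the 176 was called (1.89% of all loci), with 14 at an unadjusted p under 0.05 (7.95%, against 15.2% of all loci) and 14 called by DESeq2. In xpf-3 only tRNA-Ile ENSRNA049492457 was called (against 4.87% of all loci), with 0 counts in the dark, 8, 3 and 4 at the lower dose and 26, 27 and 20 at the higher dose, at least 14.6-fold higher (edgeR adjusted p = 0.0370). The locus met the filter on low counts only through those 3 libraries, so the call is no support for a change. It was lost in 8 of 11 other settings, among them the removal of each of the 6 libraries, with an adjusted p of 0.119 at most.

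In uvr8-6 only tRNA-Val ENSRNA049492664 was called (against 0.541% of all loci). It had 0 counts in the dark, 13, 16 and 11 at the lower dose and 63, 27 and 7 at the higher dose, at least 23.5-fold higher than in the dark (edgeR adjusted p = 0.0247), and the call was lost without dark I (0.0733) or higher dose I (0.0525). The values nearest to the threshold elsewhere were a log2 change of -1.95 for tRNA-Ser ENSRNA049492728 in WT (edgeR adjusted p = 0.0570) and of -1.04 for tRNA-Thr ENSRNA049492655 in xpf-3 (0.0609).

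At the lower dose no locus of the 176 was called by edgeR in WT (0% of all loci), xpf-3 (0.541%), uvr8-6 (0%) or the mean of genotypes (0.902%). At an unadjusted p under 0.05 there were 16, 17, 22 and 22, which is 9.09, 9.66, 12.5 and 12.5% of the 176 against 6.04, 14.7, 5.05 and 14.3% of all loci, and DESeq2 called 10, 10, 12 and 18. The closest were tRNA-Val ENSRNA049492664 in uvr8-6 (edgeR adjusted p = 0.0731) and tRNA-Leu ENSRNA049492742 in xpf-3 (0.106). No sum was called by edgeR (0.845% of all rows), 4 had an unadjusted p under 0.05 (28.6%, against 16.9% of all rows) and DESeq2 called 1. Without WT dark II, 2 loci were called in the mean of genotypes, and 1 without WT dark I, WT lower dose III or xpf-3 lower dose III.

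Between xpf-3 and WT no locus was called by edgeR in the dark (0% of all loci) or in the mean of doses (0%). At an unadjusted p under 0.05 there were 13 and 21 (7.39 and 11.9%, against 4.69 and 7.84% of all loci), and DESeq2 called 8 and 6. tRNA-Ile ENSRNA049492660 had a log2 change of 0.52 ± 0.14 (SE, edgeR adjusted p = 0.345) and the tRNA-Ile sum one of 0.62 ± 0.14 (edgeR adjusted p = 0.217). No sum was called by edgeR (0% of all rows), 3 had an unadjusted p under 0.05 (21.4%, against 7.07% of all rows) and DESeq2 called 1.

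Whether a dose changed a locus more in a mutant than in WT was tested directly. None of the 4 such tests, lower and higher dose in xpf-3 and in uvr8-6, called a locus by edgeR (0% of all loci in each). At an unadjusted p under 0.05, xpf-3 had 15 and 12 loci (8.52 and 6.82%, against 4.78 and 4.69% of all loci) and uvr8-6 had 23 and 15 (13.1 and 8.52%, against 5.14 and 5.59%). DESeq2 called 7, 3, 15 and 15. So the calls at the higher dose in a single genotype, of tRNA-Ile ENSRNA049492457 and tRNA-Val ENSRNA049492664, were not shown to differ from WT.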

How the data were processed

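Small RNA reads were counted by the authors, who deposited raw counts per locus in a table of 2071 loci and 27 libraries. Trimming with cutadapt and quality checks with FastQC are named in the submitters' processing notes, while which aligner, build and counting tool were used, and how reads with many matches were treated, is not given in the sources used here. Counts of near-identical tRNA copies are therefore uncertain at the single locus.

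Loci were filtered with filterByExpr (minimum count 10), scaled by TMM and fitted with edgeR 4.0.16 (limma 3.58.1, R 4.3.3), by the quasi-likelihood test on 9 groups with 18 residual degrees of freedom, over 1109 loci and adjusted over all of them. The table with sums was fitted the same way over 947 rows. The table with all nuclear loci summed was also fitted the same way and adjusted over its own rows. There were 16 comparisons of loci and 4 of sums. Values after ± are SDs over libraries or SEs of the fit, and both include the spread between libraries. Floors cover counting error only. Alternatives were other size factors, no filter on low counts, DESeq2 1.42.0, library sizes from tRNA counts, the replicate number as a block, each library left out in turn and, added after seeing the data, all nuclear loci of an amino acid summed. The fit was tested on simulated data. Sequences are from RefSeq (TAIR10.1), read with Python 3.11.15 and pandas 2.3.3, and figures were drawn with matplotlib 3.10.9.

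Loci named are the 10 with the highest mean CPM, the most counted of each amino acid, the called loci with a mean of at least 10 CPM and the largest changes, up to 10 in each direction for the means of doses or genotypes and 5 elsewhere, and, where fewer than 5 were called, some of the 5 with the smallest p. Other called loci, the tRNA-Phe, tRNA-Cys and tRNA-Pro loci and the loci that show jumps were named after their values were seen. The members and lists were chosen with earlier results of these data known. The other tRNA loci were not analysed here except as background.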

Additional observations from a re-analysis of the deposited data

How the results depend on the processing

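No called result changed direction under any setting tried. Every sum was followed through the settings, but an uncalled single locus only where its p was among the smallest of a comparison. Signs of the other uncalled single loci were not checked, so sums and single loci cannot be compared in this. Of the uncalled results that were followed, 16 changed sign under at least 1 setting, all of them sums. With all nuclear loci summed there were 9 such turns, among them tRNA-Ala (0.37 to -0.51), tRNA-Gln (-0.13 to 0.28) and tRNA-Pro (0.11 to -0.07) at the higher dose and tRNA-Trp in xpf-3 (-0.15 to 0.13). DESeq2 called more of the 176 loci in most comparisons: at the lower dose 10 in WT, 10 in xpf-3, 12 in uvr8-6 and 18 in the mean; at the higher dose 14, 12, 16 and 29; 8 and 6 for xpf-3 against WT (dark and mean), 30 for uvr8-6 against WT in the dark, and 7, 3, 15 and 15 in the tests of the dose effect between mutants and WT. For sums DESeq2 called 1 at the lower dose and 1 for xpf-3. The shares of all loci and rows that DESeq2 called were not counted, so its counts do not set the 176 apart from other loci. The single call at the higher dose in xpf-3 became 0 with no filter and 0 with tRNA library sizes, which gave 1 call at the lower dose in the mean of genotypes. With all nuclear loci summed, 1 sum was called at the lower dose (tRNA-Trp, 0.57, edgeR adjusted p = 0.0449). At the higher dose that setting called 3 sums in place of 2, adding tRNA-Phe and tRNA-Thr and losing tRNA-Tyr, and for uvr8-6 it called 7, adding tRNA-Gln and losing tRNA-Gly. The cause of these changes was not tested. The share of all rows called under that setting was not counted, so its counts do not set these sums apart from other rows. With tRNA library sizes the log2 change of each locus moved, by a median over all loci of 0.18 at the lower dose in xpf-3. That median was 0.17 in the test of that dose between xpf-3 and WT, and less than 0.1 in size elsewhere.

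Leaving out 1 library gave 0 to 0 calls at the lower dose in each genotype, 0 to 2 in the mean, 0 to 3 at the higher dose in WT, 0 to 1 in xpf-3, 0 to 2 in uvr8-6 and 13 to 21 in the mean. It gave 0 to 0 for xpf-3 against WT, 5 to 9 for uvr8-6 against WT in the dark and 18 to 26 in the mean of doses, 0 to 1 in the uvr8-6 test of the lower dose and 0 to 0 in the other tests between mutants and WT. For sums the ranges were 0 to 0, 2 to 3, 0 to 1 and 6 to 8 for the lower dose, higher dose, xpf-3 and uvr8-6. At the higher dose in WT, 3 were called without dark I, 1 without dark II and 1 without higher dose III.

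The replicate numbers did not pair the libraries: over 24 pairs the correlation of deviations ran from -0.15 to 0.0993. With the replicate number as a block, 3 loci in place of 1 were called at the higher dose in xpf-3, 13 in the mean of genotypes at the higher dose, 10 for uvr8-6 against WT in the dark and 25 in the mean of doses.

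Of 62 calls on single loci and sums, 33 held under every setting. The tRNA-Tyr and tRNA-Trp sums had as few as 27 and 11 counts in a library, and 61 of the 237 counted loci were too sparse to test.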
